A study of Mus musculus with 4 samples.

Results

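The primary granule protein genes described here are 7 mouse genes chosen by symbol, Mpo, Elane, Prtn3, Ctsg, Ms4a3, Fcnb and Prss57, out of 45232 genes with deposited counts. Ms4a3 encodes a membrane-spanning protein of progenitors, so the group and its sums are wider than granule contents. Each symbol matched 1 Ensembl gene identifier, and all 7 genes were among the 15591 genes that passed a filter on low counts. RNA was sequenced from leukemic granulocyte-macrophage progenitors (L-GMPs), leukemia cells that resemble normal granulocyte-macrophage progenitors. Cells came from 2 mice of the group labelled miR-99 KD and 2 mice of the group labelled Scr. Both groups were secondary recipients of MLL-AF9 leukemia, which is driven by a fusion oncoprotein. Sorting took place when the mice died, with a gate positive for CD34, CD16/32, Sca-1, c-Kit and the reporters tdTom and GFP. The sources used here do not give the strain and age of the mice, what Scr and KD stand for, or whether all 4 recipients carried 1 primary leukemia.

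Primary or azurophil granules are the first granules that a developing neutrophil builds, at the promyelocyte stage. They store myeloperoxidase and a set of serine proteases that cathepsin C trims to the active form. Transcription of these genes starts in granulocyte-macrophage progenitors under factors such as C/EBP alpha, PU.1, MYB and RUNX1, and declines before secondary granules are made. Leukemia cells with MLL-AF9 are held near this progenitor stage.

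miR-99 of the group label belongs to a family of microRNAs with a common seed, the stretch that pairs with target transcripts, and the label does not say which members are meant. Mature sequences of the family are shown for that stretch, with bases 2 to 8 in capitals (RefSeq, GRCm38.p6).
mmu-miR-99a-5p: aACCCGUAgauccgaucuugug
mmu-miR-99b-5p: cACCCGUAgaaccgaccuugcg
mmu-miR-100-5p: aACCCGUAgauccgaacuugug
All 3 have the same seed. The match to bases 2 to 8 (TACGGGT), or to bases 2 to 7 followed by A (ACGGGTA), was in none of the longest annotated 3′ UTRs of the 7 genes, which run from 78 bases for Ctsg to 1795 bases for Prss57. It was in 2.64% of 12387 tested genes with such a UTR. Libraries of this kind do not capture mature microRNAs, so the level of miR-99 itself was not measured.

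The DNA before the start sites of 4 of the genes is shown next. Mpo had the largest ratio of the 7 genes between the groups, Elane and Prtn3 are neighbours on chromosome 10, and the groups overlapped for Ctsg. Each line holds the 250 bases before the RefSeq start site on the strand of the gene (GRCm38.p6), and capitals mark AGGAAGT, the core of a site for ETS factors such as PU.1.
Mpo: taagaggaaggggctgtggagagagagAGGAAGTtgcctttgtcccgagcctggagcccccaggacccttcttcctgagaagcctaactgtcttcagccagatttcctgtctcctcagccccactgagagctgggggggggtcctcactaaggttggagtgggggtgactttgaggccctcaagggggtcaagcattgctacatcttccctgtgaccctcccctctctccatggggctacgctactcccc
Elane: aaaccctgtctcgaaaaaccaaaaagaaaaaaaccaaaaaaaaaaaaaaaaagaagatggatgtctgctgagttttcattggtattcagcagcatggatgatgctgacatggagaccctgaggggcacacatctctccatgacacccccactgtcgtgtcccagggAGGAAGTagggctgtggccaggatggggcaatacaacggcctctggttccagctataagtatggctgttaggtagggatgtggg
Prtn3: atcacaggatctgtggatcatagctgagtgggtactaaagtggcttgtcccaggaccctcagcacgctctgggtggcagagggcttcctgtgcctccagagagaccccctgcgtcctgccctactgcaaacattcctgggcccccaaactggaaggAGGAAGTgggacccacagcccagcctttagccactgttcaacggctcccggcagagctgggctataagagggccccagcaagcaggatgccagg
Ctsg: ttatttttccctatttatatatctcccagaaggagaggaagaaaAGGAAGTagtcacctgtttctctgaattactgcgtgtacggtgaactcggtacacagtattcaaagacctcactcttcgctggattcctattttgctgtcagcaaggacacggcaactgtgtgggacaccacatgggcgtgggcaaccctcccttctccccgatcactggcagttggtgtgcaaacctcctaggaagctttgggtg
They lie at chr11:87793534-87793783 (plus strand), chr10:79886062-79886311 (plus strand), chr10:79879417-79879666 (plus strand) and chr14:56102575-56102824 (minus strand), in the order shown. RefSeq start sites can differ from the GENCODE gene bounds given with the genes. By those bounds the Prtn3 stretch lies inside the gene, and those of Mpo and Elane reach past the gene start. The Ctsg stretch ends at the gene bound. Windows of 250 bases before to 50 bases after the start site were at hand for 6 of the 7 genes, with Prss57 missing. AGGAAGT, searched on both strands, was in the windows of Mpo, Elane, Prtn3, Ctsg and Fcnb, and in 9.35% of 32851 windows of that length. Its first base lay at −84 in Elane, −94 in Prtn3, −103 in Fcnb, −206 in Ctsg and −223 in Mpo, counted from the RefSeq start site. Counted from the GENCODE bounds, the positions in Mpo, Elane and Prtn3 would differ. AACNG, a pattern of MYB sites searched on both strands, was in the same 5 windows and in 80.3% of all windows. TTNNGNAA, a C/EBP pattern, was in the windows of Fcnb and Ms4a3 (40.7% of all, both strands), and TGNGGT, a RUNX pattern, was in that of Ctsg (45.8% of all, both strands). TATAA on the sense strand was in the windows of Elane, Prtn3 and Fcnb (17.5% of all). These patterns were picked after the sequences had been read, and a match describes letters, not a bound site.

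Gene counts per library were between 38458519 and 42674407, and levels are given as CPM, the counts of a gene per 1000000 gene counts of its library. The library Scr 1 stood apart: it had counts in 28573 genes, against 21372 to 24038 in the other libraries, and olfactory receptor genes held 51.9 CPM in it, against 4.78 to 15 CPM elsewhere. Of the gate genes, Cd34 ranged from 283 to 358 CPM and Fcgr3 from 370 to 482 CPM over the 4 libraries, and Kit had 298 and 232 CPM in miR-99 KD, against 453 and 424 CPM in Scr, whereas Ly6a, the gene of Sca-1, ranged from 0.0941 to 0.191 CPM. Below 1 CPM in every library were 5 of 6 markers of T and NK cells, 3 of 5 of megakaryocytes and 4 of 7 of stroma and endothelium, Cd3e, Pf4 and Cdh5 among them. The summed levels were 0.398 and 0.423 CPM in miR-99 KD, against 1.69 and 1.74 CPM in Scr for T and NK cells, 15.9 and 7.48 CPM in miR-99 KD, against 12.1 and 11 CPM in Scr for megakaryocytes (mostly Itga2b), and 2.60 and 3.50 CPM in miR-99 KD, against 9.23 and 3.34 CPM in Scr for stroma and endothelium. Of B cell markers 5 of 7 were below 1 CPM in every library, and of erythroid markers 2 of 7. Erythroid markers summed to 41.4 and 104 CPM in miR-99 KD, against 68.8 and 88.4 CPM in Scr. B cell markers summed to 1.24 and 1.46 CPM in miR-99 KD, against 3.98 and 1.74 CPM in Scr. DESeq2 called the erythroid gene Slc4a1 (adjusted p 0.00464) and Klrb1c of the T and NK list (adjusted p 0.0238) lower in miR-99 KD.

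The 7 genes had more counts in miR-99 KD as a sum, with 0.844% and 1.53% of gene counts in the miR-99 KD libraries, against 0.568% and 0.424% in the Scr libraries. The 95% Wilson intervals, for counting error only, were 0.841% to 0.846% and 1.52% to 1.53% in miR-99 KD and 0.566% to 0.571% and 0.422% to 0.426% in Scr. The sum was highest in miR-99 KD 2 and lowest in Scr 2, and the groups did not overlap. In bulk samples, a larger share of promyelocyte-stage cells and more of these transcripts per cell cannot be told apart.

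**Figure D1:**
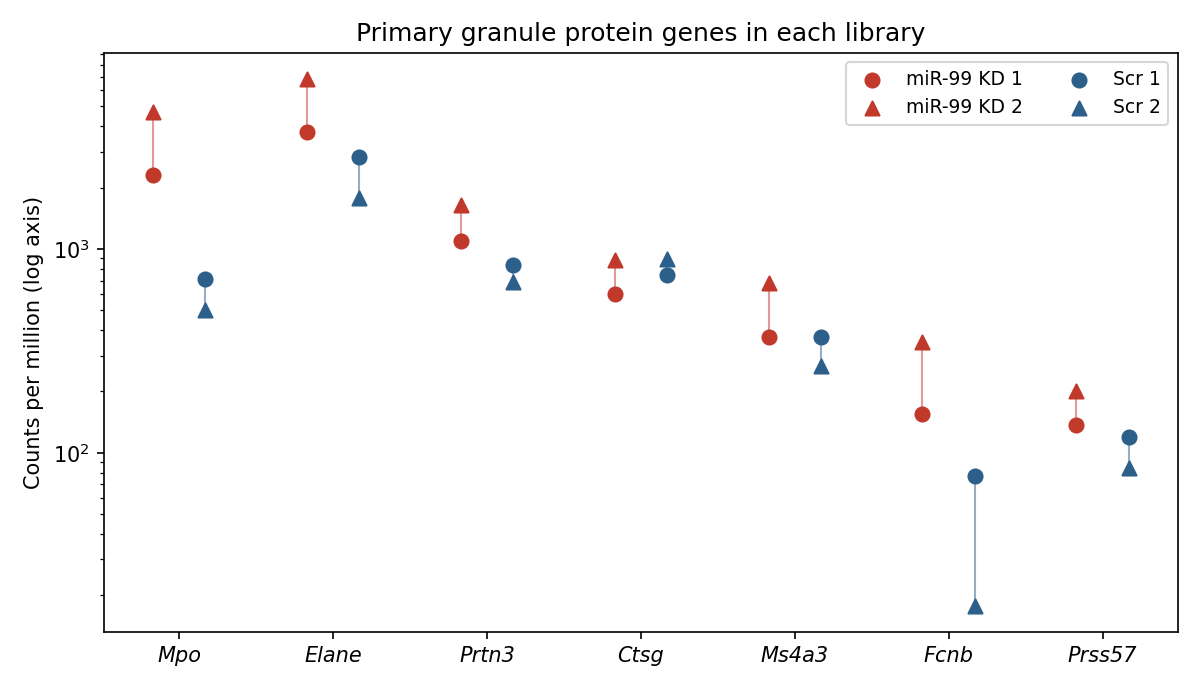
CPM (log axis) of the 7 primary granule protein genes in each library. Red symbols are miR-99 KD 1 (circle) and miR-99 KD 2 (triangle), blue symbols are Scr 1 (circle) and Scr 2 (triangle), and a thin line joins the libraries of a group; the gap between groups is widest for Mpo and the groups overlap for Ctsg.

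Mpo (ENSMUSG00000009350) encodes myeloperoxidase, the granule enzyme that makes hypochlorous acid. It had 2313 and 4714 CPM in the miR-99 KD libraries, against 713 and 503 CPM in the Scr libraries. Both miR-99 KD libraries were more than 3 times above the higher Scr library. Means were 3514 ± 1698 CPM for miR-99 KD, against 608 ± 149 CPM for Scr (SD, n = 2 each), a ratio of 5.78. The log2 fold change of miR-99 KD over Scr was 2.59 ± 0.40 (SE; 95% interval 1.52 to 3.66), with an edgeR adjusted p of 0.421 over all genes. DESeq2 gave 2.63 with an adjusted p of 5.5e-06, and edgeR without Scr 1 gave 2.87. Mpo lies on chromosome 11, from 87793581 to 87804413 (GRCm38, plus strand). The antisense gene Gm11505 overlaps 15% of its exon bases and had 29.2 and 56.2 CPM in miR-99 KD, against 9.15 and 7.0 CPM in Scr. Without a stated strand setting, reads of Mpo and of Gm11505 from the shared exon bases cannot be told apart.

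Among the granule serine proteases, Elane (ENSMUSG00000020125) encodes neutrophil elastase. It had 3767 and 6794 CPM in miR-99 KD, against 2828 and 1782 CPM in Scr. The groups did not overlap, and on the CPM scale miR-99 KD 1 was closer to Scr 1 than to miR-99 KD 2. Its log2 fold change was 1.26 ± 0.36 (95% interval 0.30 to 2.22), with an edgeR adjusted p of 0.580. It was 1.63 without Scr 1 and 0.83 without miR-99 KD 2.

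Prtn3 (ENSMUSG00000057729) encodes proteinase 3, the protease that is the common autoantigen of human granulomatosis with polyangiitis. It had 1094 and 1635 CPM in miR-99 KD, against 833 and 690 CPM in Scr. The groups did not overlap. The log2 fold change was 0.90 ± 0.23 (95% interval 0.28 to 1.52), with an edgeR adjusted p of 0.569. Exons of Plppr3 on the opposite strand overlap 9.18% of the Prtn3 exon bases, and Plppr3 had 199 and 146 CPM in miR-99 KD, against 185 and 188 CPM in Scr. Prtn3 lies on chromosome 10 from 79874476 to 79883174, and Elane follows at 79886247 to 79888215, both on the plus strand (GRCm38).

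Prss57 (ENSMUSG00000020323; chromosome 10, 79781474 to 79790961, minus strand, GRCm38) encodes neutrophil serine protease 4. It had 137 and 202 CPM in miR-99 KD, against 119 and 84.2 CPM in Scr. The groups did not overlap, with a narrow gap between miR-99 KD 1 and Scr 1. In edgeR the log2 fold change was 0.80 ± 0.26 (95% interval 0.11 to 1.49), with an adjusted p of 0.605. Exons of Fstl3 on the opposite strand overlap 40.7% of the Prss57 exon bases, so its counts are uncertain, and Fstl3 had 2.60 and 2.19 CPM in miR-99 KD, against 3.64 and 3.87 CPM in Scr.

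Ctsg (ENSMUSG00000040314) encodes cathepsin G, the chymotrypsin-like protease of these granules. It had 599 and 884 CPM in miR-99 KD, against 741 and 891 CPM in Scr. The groups overlapped, with the lowest value in miR-99 KD 1 and the highest in Scr 2. A log2 fold change of −0.09 ± 0.26 was found, with an edgeR adjusted p of 0.921 and a 95% interval of −0.79 to 0.60. The estimate was 0.18 without Scr 2 and 0.20 without miR-99 KD 1, so the sign turned when either of these libraries was left out. The interval of Ctsg lay below that of Mpo and overlapped those of the other 5 genes, and a difference between genes was not tested. Ctsg lies on chromosome 14, from 56099881 to 56102574 (GRCm38, minus strand).

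The remaining genes are no proteases. Fcnb (ENSMUSG00000026835) encodes ficolin B, a lectin of the complement system that mouse granulocyte precursors make. It had 155 and 349 CPM in miR-99 KD, against 77.2 and 17.8 CPM in Scr. The groups did not overlap, but the Scr libraries differed from each other by a ratio of 4.33, the widest within-group ratio of the 7 genes. The log2 fold change was 2.50 ± 0.80 (95% interval 0.36 to 4.63), with an edgeR adjusted p of 0.602. DESeq2 gave 2.53 with an adjusted p of 0.0389, and edgeR without Scr 1 gave 3.89, a value that rests on Scr 2 as the lone Scr library. Fcnb lies on chromosome 2, from 28076378 to 28084885 (GRCm38, minus strand).

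Ms4a3 (ENSMUSG00000024681) encodes a membrane-spanning protein of granulocyte-macrophage progenitors that human work ties to cell cycle exit. It had 370 and 684 CPM in miR-99 KD, against 371 and 268 CPM in Scr. On this scale miR-99 KD 1 and Scr 1 were nearly equal, and with TMM scaling, which moves Scr 1 down, both miR-99 KD libraries were above both Scr libraries. The log2 fold change was 0.78 ± 0.34 (95% interval −0.12 to 1.68), with an edgeR adjusted p of 0.659. It was 1.21 without miR-99 KD 1 and 0.33 without miR-99 KD 2. Ms4a3 lies on chromosome 19, from 11629496 to 11640851 (GRCm38, minus strand).

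Counted over the group, 0 of the 7 genes passed edgeR at an adjusted p under 0.05, where 0% of all 15591 genes were called in either direction. At an unadjusted p under 0.05, 5 of the 7 were higher in miR-99 KD (Mpo, Elane, Prtn3, Fcnb and Prss57) and 0 lower, whereas 2.66% of all genes were higher and 5.23% lower. DESeq2 called 2 of the 7 higher, Mpo and Fcnb, and 0 lower, against 0.725% of all genes higher and 0.949% lower. With Scr 1 left out, edgeR called 3 of the 7 higher (Mpo, Elane and Fcnb) and 0 lower, against 0.993% of all genes higher and 0.855% lower. The spread of the lone Scr library was then not measured, and the fit used the miR-99 KD pair and values pooled over genes instead. Calls without Scr 1 therefore do not rest on replicate Scr libraries. With TMM scaling, both miR-99 KD libraries were above both Scr libraries for 6 of the 7 genes, against 18.9% of all genes, and below both for 0, against 25.3%. The median log2 fold change of the 7 genes was 0.90, beside −0.01 over all genes tested, with 6 positive and 1 negative, where 49% of all genes were positive and 51% negative. The members were chosen with earlier results of these libraries known, so these counts describe the genes and test nothing about them as a set.

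**Figure D2:**
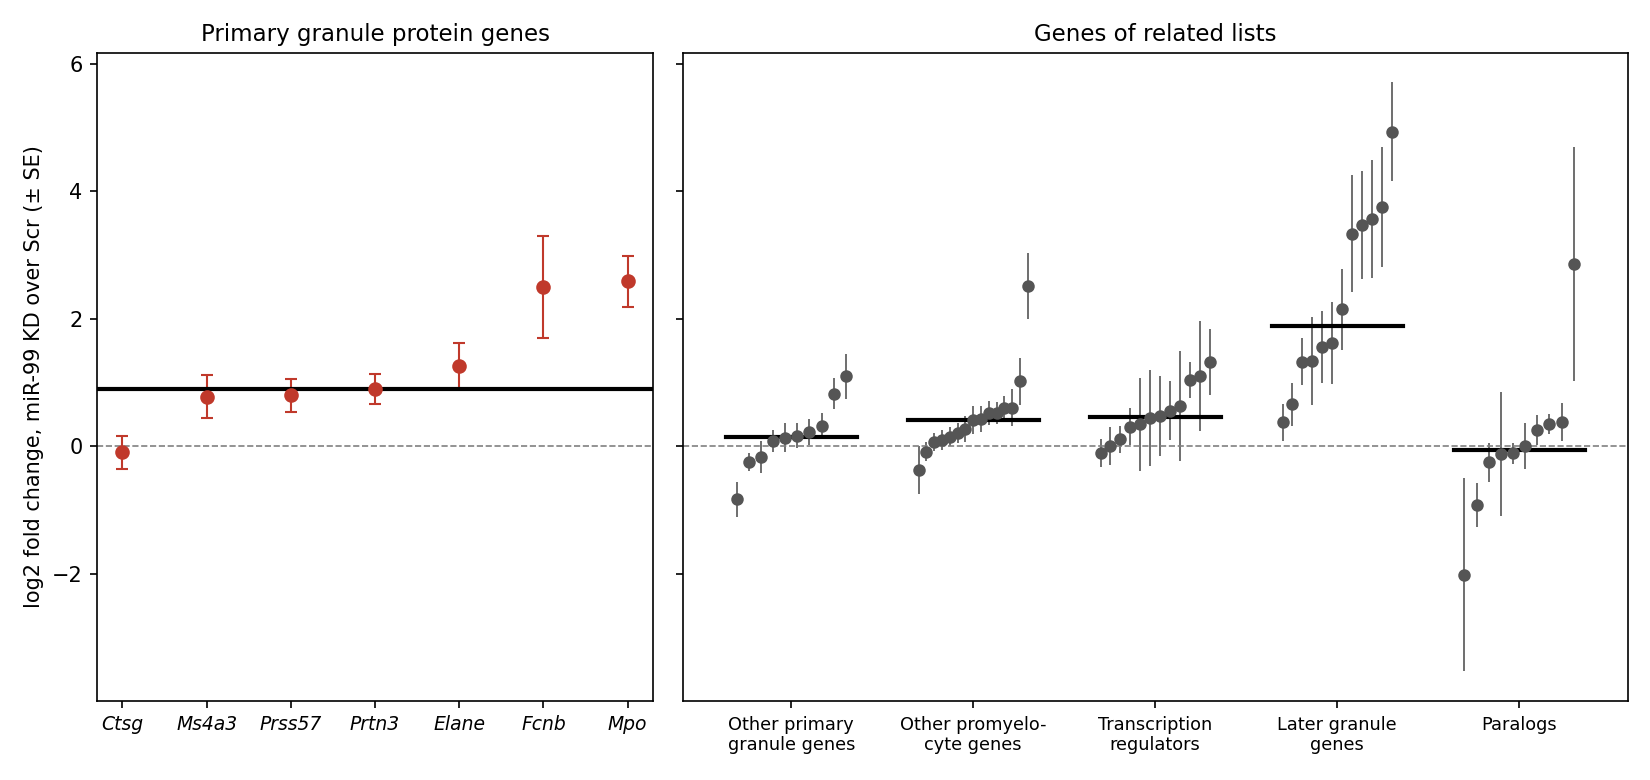
Log2 fold change of miR-99 KD over Scr with its standard error (edgeR, n = 2 each) for the 7 primary granule protein genes (left) and for the tested genes of 5 related lists (right), 1 point per gene. Black lines mark medians: 0.90 for the primary granule protein genes, 1.89 for the later granule list, which includes S100a8, S100a9 and Ifitm6, and −0.06 for paralogs.

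The balance among the 7 genes also differed between the groups, in ratios that no scaling between libraries can move. Mpo made up 27.4% and 30.9% of the counts of the 7 genes in miR-99 KD, against 12.6% and 11.9% in Scr. Their 95% Wilson intervals were 27.3% to 27.6% and 30.8% to 31.0% in miR-99 KD, and 12.4% to 12.7% and 11.7% to 12.0% in Scr. Ctsg made up 7.10% (7.02% to 7.19%) and 5.79% (5.74% to 5.85%) in miR-99 KD, against 13% (12.9% to 13.2%) and 21% (20.8% to 21.2%) in Scr. Both shares differed between the groups in every pair of libraries, in opposite directions. Shares of a common sum are tied, so more counts of Mpo lower the Ctsg share even where Ctsg itself is unchanged. The CPM of Ctsg overlapped between the groups, so its share is not a separate difference. The share of Elane, 44.7% and 44.5% in miR-99 KD, lay between the Scr values of 49.8% and 42.1%.

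**Figure D3:**
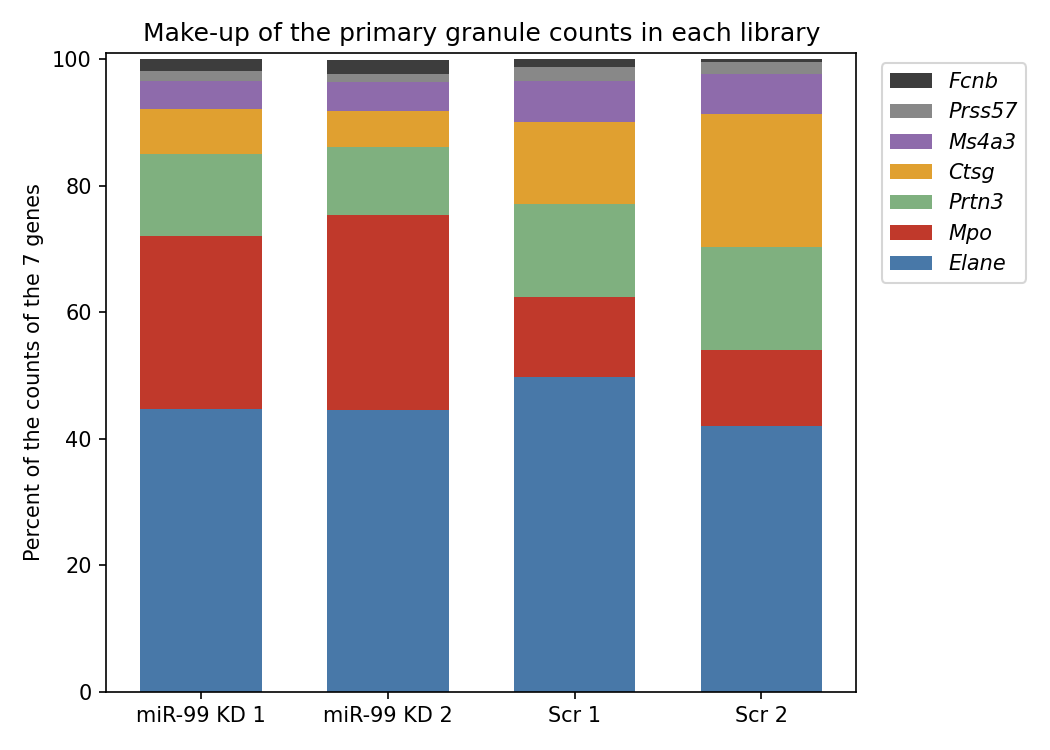
Percent of the summed counts of the 7 primary granule protein genes taken by each gene, in each library. The Mpo segment is 27.4% and 30.9% in the miR-99 KD libraries, against 12.6% and 11.9% in the Scr libraries, while the Ctsg segment is smaller in miR-99 KD.

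Per count of Ctsg there were 3.86 and 5.33 counts of Mpo in miR-99 KD, against 0.962 and 0.565 in Scr. Per count of Elane there were 0.614 and 0.694 counts of Mpo in miR-99 KD, against 0.252 and 0.282 in Scr, so the libraries of each group lay close together and far from the other group. Among the proteases on chromosome 10, counts of Prtn3 per count of Prss57 were 7.98 and 8.09 in miR-99 KD, against 7.01 and 8.20 in Scr, and the groups overlapped. Counts of Elane per count of Prtn3 were 3.44 and 4.16 in miR-99 KD, against 3.39 and 2.58 in Scr, and those of Elane per count of Prss57 were 27.5 and 33.6 in miR-99 KD, against 23.8 and 21.2 in Scr. Both ratios of Elane were higher in each miR-99 KD library than in each Scr library. An exact two-sided permutation test of 2 against 2 libraries cannot go below 0.333, so no ratio was tested. The pairs were chosen after their values had been seen.

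Per kilobase of exon, Elane had the highest level of the 7 genes in every library, at 3828 and 6905 CPM per kilobase in miR-99 KD, against 2874 and 1811 in Scr. Ctsg had rank 4 in both miR-99 KD libraries (580 and 856 CPM per kilobase) and rank 2 in both Scr libraries (718 and 862). Mpo had rank 2 in both miR-99 KD libraries (676 and 1377) and rank 4 in both Scr libraries (208 and 147). In miR-99 KD the ranges of Mpo, Prtn3 and Ctsg overlapped. The lowest levels were those of Prss57, with 48.2 and 71.1 CPM per kilobase in miR-99 KD, against 41.8 and 29.6 in Scr, except in Scr 2, where Fcnb was lowest at 13.3.

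Within each group the libraries kept a common order over most of the 7 genes. All 7 were higher in miR-99 KD 2 than in miR-99 KD 1, by ratios of 1.47 (Prss57) to 2.25 (Fcnb). In the Scr group 6 of 7 were higher in Scr 1 than in Scr 2, by 1.21 (Prtn3) to 4.33 (Fcnb), and Ctsg had a ratio of 0.832. These orders were not counted over all genes, so they cannot be called particular to the 7.

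Prss57, Prtn3 and Elane lie within 107 kilobases on chromosome 10, from 79781474 to 79888215 (GRCm38), with 4 other coding genes in the stretch. Palm had 235 and 200 CPM in miR-99 KD, against 91.6 and 206 CPM in Scr. Ptbp1, a splicing regulator, had 593 and 434 CPM in miR-99 KD, against 624 and 654 CPM in Scr. Misp was below 1 CPM in every library, and Plppr3 is given above, so of the 3 other genes tested none had groups in which miR-99 KD was above Scr throughout. Their log2 fold changes were 0.58 ± 0.47, −0.26 ± 0.22 and −0.06 ± 0.22 for Palm, Ptbp1 and Plppr3, with edgeR adjusted p of 0.754, 0.759 and 0.945. Cfd, the gene of complement factor D next to Elane, was at 0.117 and 0.188 CPM in miR-99 KD, against 0.182 and 0.215 CPM in Scr.

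Neighbours of the other genes had low or different values. Lpo, the lactoperoxidase gene beside Mpo, had at most 0.141 CPM in any library. Tspoap1, on the other side of Mpo, had 42.0 and 30.6 CPM in miR-99 KD, against 113 and 80.6 CPM in Scr, the reverse of Mpo (log2 fold change −1.34 ± 0.26, edgeR adjusted p 0.466, DESeq2 adjusted p 0.0109). Mcpt8, a basophil protease gene beside Ctsg, had 4.8 and 8.28 CPM in miR-99 KD, against 6.16 and 7.33 CPM in Scr, and Gzme had at most 0.0705 CPM. Beside Ms4a3, Ms4a2 (1.71 and 2.00 CPM in miR-99 KD, against 1.74 and 1.24 CPM in Scr) and Oosp2 (at most 0.334 CPM) were low. Both neighbours of Fcnb were low but had the direction of Fcnb. Olfm1 had 2.18 and 2.02 CPM in miR-99 KD, against 0.728 and 0.884 CPM in Scr (log2 fold change 1.43 ± 0.32, edgeR adjusted p 0.505). Col5a1 had 1.87 and 1.50 CPM in miR-99 KD, against 1.27 and 0.740 CPM in Scr (0.82 ± 0.38, edgeR adjusted p 0.661). Rnf126, the neighbour of Prss57 at lower coordinates, had 34.4 and 28.6 CPM in miR-99 KD, against 15.4 and 43.6 CPM in Scr.

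For paralogs of the 7 genes the median was −0.06 on the log2 scale. Of 18 listed, 10 were tested, with 4 positive and 6 negative, and 0 had an unadjusted p under 0.05 in edgeR or a DESeq2 call. The eosinophil peroxidase gene Epx, a relative of Mpo, had 4.64 and 0.0470 CPM in miR-99 KD, against 0.520 and 0.167 CPM in Scr, so its values followed no group. Fcna, the ficolin A gene, had 1.31 and 1.18 CPM in miR-99 KD, against 3.12 and 1.84 CPM in Scr (log2 fold change −0.92 ± 0.35, edgeR adjusted p 0.632), the opposite direction to Fcnb. Ms4a6c, a relative of Ms4a3, had 125 and 116 CPM in miR-99 KD, against 109 and 88.3 CPM in Scr.

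Other genes of primary granules and of their processing differed in both directions. Of 12 listed, 10 were tested, 7 with positive and 3 with negative log2 fold changes and a median of 0.15. No gene of the list passed in edgeR or DESeq2. Unadjusted edgeR p-values under 0.05 were found for 2 higher genes and 1 lower gene, against 2.66% of all genes higher and 5.23% lower. Lyz2, the lysozyme gene of myeloid cells, had 659 and 1250 CPM in miR-99 KD, against 540 and 390 CPM in Scr (1.10 ± 0.35, edgeR adjusted p 0.600). Cst7, which encodes cystatin F, an inhibitor of cathepsin C, had 88.9 and 128 CPM in miR-99 KD, against 60.4 and 65.2 CPM in Scr (0.83 ± 0.24, edgeR adjusted p 0.583). The lower gene was Bpi, which encodes a granule protein that kills Gram-negative bacteria, with 1.10 and 1.29 CPM in miR-99 KD, against 2.42 and 2.01 CPM in Scr (−0.83 ± 0.28, edgeR adjusted p 0.621), and it was named after its values were seen. Ctsc, the cathepsin C gene, had 139 and 205 CPM in miR-99 KD, against 177 and 149 CPM in Scr, and Srgn, the serglycin core that packs granule proteins, had 1351 and 1842 CPM in miR-99 KD, against 1589 and 1353 CPM in Scr. Groups overlapped for Ctsc and for Srgn, which were picked for their roles.

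Of 15 other genes of the promyelocyte stage, 13 had a positive log2 fold change and 2 a negative one, with a median of 0.42. In edgeR 0 passed, 5 were higher at an unadjusted p under 0.05, against 2.66% of all genes, and DESeq2 called 0. Igsf6, a myeloid surface protein gene, had 383 and 456 CPM in miR-99 KD, against 334 and 244 CPM in Scr (0.60 ± 0.19, edgeR adjusted p 0.595). Dmkn had the smallest p of the list from a level below 1 CPM, at 0.539 and 0.588 CPM in miR-99 KD, against 0.0780 and 0.119 CPM in Scr.

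Genes listed for secondary and tertiary granules, which follow primary granules in maturation, had a median of 1.89 on the log2 scale, beside 0.90 for the primary granule genes, and the difference was not tested. All 12 had positive values, against 49% of all genes. In edgeR 8 were higher at an unadjusted p under 0.05, against 2.66% of all genes, and 0 passed. DESeq2 called 6 higher, against 0.725% of all genes. The 12 were Ltf, Camp, Ngp, Lcn2, Mmp8, Mmp9, Chil3, Ifitm6, Cd177, Pglyrp1, S100a8 and S100a9. Of these, S100a8 and S100a9 encode calcium-binding proteins and Ifitm6 a membrane protein, so the list is wider than granule contents. S100a8 (3.57 ± 0.93) and S100a9 (3.75 ± 0.94) were among the 6 that DESeq2 called. Ltf, the lactoferrin gene, had 52.6 and 145 CPM in miR-99 KD, against 4.97 and 1.82 CPM in Scr (DESeq2 adjusted p 1.11e-10). Ngp, the neutrophilic granule protein gene, had 1358 and 4821 CPM in miR-99 KD, against 441 and 146 CPM in Scr. Scr 2 was the lowest library for all 12 of these genes and for 6 of the 7 primary granule genes. miR-99 KD 2 was the highest for 11 of the 12 and for 6 of the 7. The share of all genes with such an order was not counted.

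Most transcription regulators of primary granule genes did not share this order of libraries, although Irf8 did. Of 13 listed, 12 were tested, 11 with a positive log2 fold change, and the median was 0.47. In edgeR 0 passed, with 1 higher at an unadjusted p under 0.05, against 2.66% of all genes, and DESeq2 called 0. The library Scr 1 was lowest for 9 of the 12, and the list's median was 0.01 without it and 1.34 without Scr 2. Cebpa, the gene of C/EBP alpha, had 23.1 and 13 CPM in miR-99 KD, against 3.93 and 19.6 CPM in Scr, and Gfi1, a repressor that acts in promyelocytes, had 52.0 and 32.5 CPM in miR-99 KD, against 12.6 and 49.7 CPM in Scr. Spi1, the PU.1 gene, had 404 and 450 CPM in miR-99 KD, against 363 and 453 CPM in Scr. Groups overlapped for these 3 genes, which were picked for their roles. Irf8, a factor of monocyte fate, had 284 and 446 CPM in miR-99 KD, against 217 and 154 CPM in Scr (1.04 ± 0.28, edgeR adjusted p 0.580), and Klf4, another such factor, had 1.29 and 2.85 CPM in miR-99 KD, against 0.702 and 0.979 CPM in Scr.

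Genes tied to the leukemic progenitor state had the opposite direction to the granule genes for 3 of 5 tested. Cd34 (0.15 ± 0.15) and Fcgr3 (0.21 ± 0.15), which are also in the promyelocyte list, had positive log2 fold changes. Hoxa9, a transcription factor gene that MLL-AF9 activates, had 169 and 165 CPM in miR-99 KD, against 301 and 351 CPM in Scr (−0.92 ± 0.19, edgeR adjusted p 0.466). Meis1, which encodes a partner of HOXA9, had 231 and 196 CPM in miR-99 KD, against 359 and 319 CPM in Scr (−0.61 ± 0.16, edgeR adjusted p 0.580). Kit, given with the gate genes, had a log2 fold change of −0.67 ± 0.19 (edgeR adjusted p 0.580), and the part of a shift in cell stage in the granule gene values was not tested.

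Markers of monocytes were also higher in miR-99 KD as a sum. Of 7 monocyte markers, Irf8 and Klf4 among them, 6 had a positive log2 fold change. Their summed level was 2479 and 3992 CPM in miR-99 KD, against 2121 and 1989 CPM in Scr, and none was at 0. DESeq2 called 1 of the 7 higher, F13a1 (adjusted p 0.0321), against 0.725% of all genes. F13a1 had 512 and 623 CPM in miR-99 KD, against 328 and 301 CPM in Scr. The marker with a negative value was Ccr2 (−0.50 ± 0.22), with 55.5 and 74.2 CPM in miR-99 KD, against 90 and 100 CPM in Scr. The summed level of 7 eosinophil markers was 143 and 66.9 CPM in miR-99 KD, against 61.9 and 28.2 CPM in Scr, with Ear1, Ear6 and Il5ra below 1 CPM in every library. The share of mitochondrial transcripts was 0.853% and 1.16% in miR-99 KD, against 0.650% and 0.637% in Scr. The part of these cells and of RNA quality in the granule gene values was not tested. Mast cell and basophil markers summed to 221 and 109 CPM in miR-99 KD, against 143 and 191 CPM in Scr, and these groups overlapped.

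The genes whose profile over the 4 libraries was most like the mean profile of the 7 were sought among 9042 others with a mean of at least 10 CPM, by Euclidean distance between centred log2 CPM values. The mean profile of the 7 was 0.24 and 1.01 in miR-99 KD, against −0.39 and −0.86 in Scr. The nearest were Hsd11b1 (distance 0.103), Cd177 (0.199), Lyz2 (0.246), Irf8 (0.265) and Tifa (0.266). Hsd11b1, the gene of an enzyme that regenerates active glucocorticoid, had 29.1 and 56.0 CPM in miR-99 KD, against 21.1 and 14.1 CPM in Scr. Cd177, a neutrophil surface protein gene, had 192 and 317 CPM in miR-99 KD, against 137 and 75.7 CPM in Scr. Tifa, an adaptor gene of innate signalling, had 81.9 and 166 CPM in miR-99 KD, against 57.6 and 46.7 CPM in Scr. Of the 7 genes, Elane was nearest to their mean profile (0.0565) and Fcnb farthest (1.82), followed by Ctsg (1.50) and Mpo (1.28).

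**Figure D4:**
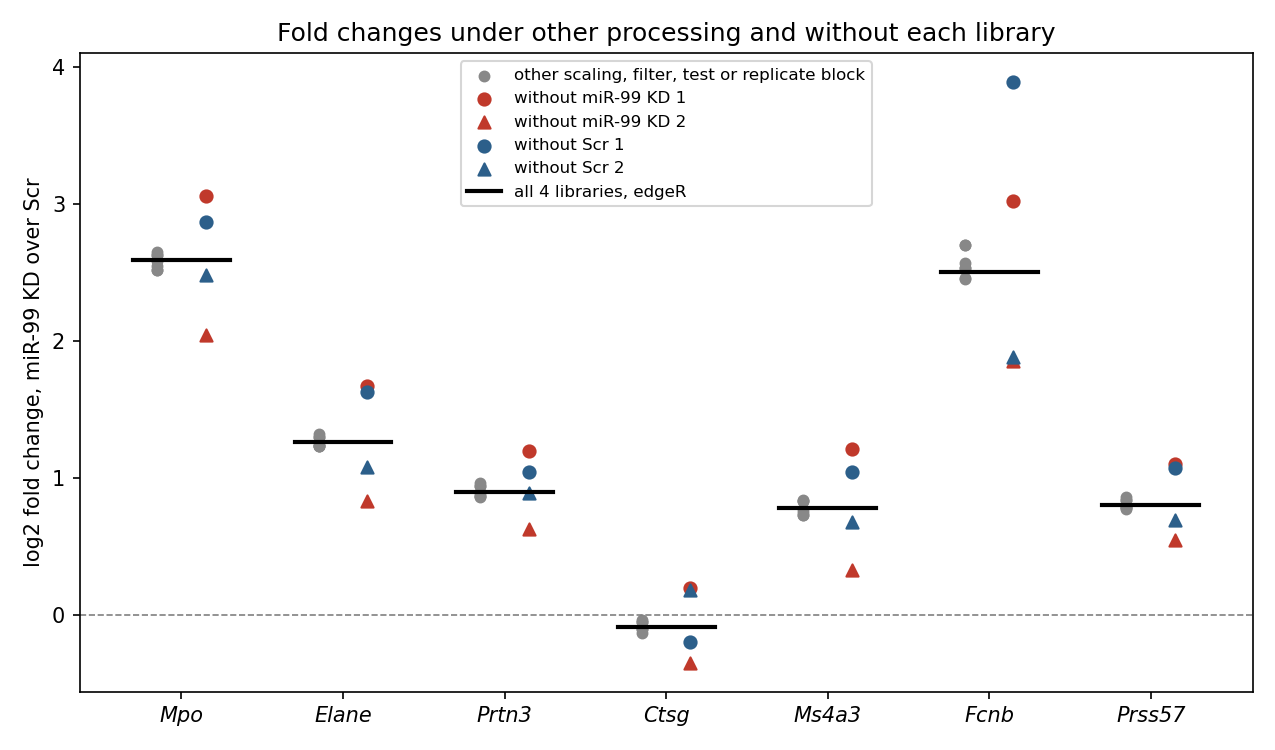
Log2 fold change of miR-99 KD over Scr for each primary granule protein gene with all 4 libraries in edgeR (black line), under other scaling, filters, tests or the replicate block (grey), and without 1 library (coloured). Values without a library spread more than the grey points for every gene, from −0.35 to 0.20 for Ctsg and from 1.85 to 3.89 for Fcnb.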

How the data were processed

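The deposited files hold raw read counts per Ensembl gene for 4 libraries of sorted mouse leukemia cells, 2 labelled miR-99 KD and 2 labelled Scr. Per the labels' protocols, RNA was taken up in Trizol LS and libraries were made with SMARTer amplification. The submitters' processing notes name STAR, Picard, HTSeq, DESeq2 and the build mm9, with no versions or roles; for annotation, strand setting and read layout, the sources used here give nothing. In each library 5 categories that name no gene held 43.7% to 49.7% of all entries and were left out, 19.3% to 23.6% being alignments that were not unique, so genes that have near-identical copies may be counted too low.

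Symbols and coordinates were looked up by identifier in GENCODE M21 (GRCm38) for 44585 of 45232 identifiers; no mm9 position was converted. CPM are counts over the library's gene total. The quasi-likelihood test of edgeR 4.0.16 in R 4.3.3 compared miR-99 KD with Scr, two-sided, with TMM factors (0.969 to 1.07), a minimum count of 10 in the default expression filter and Benjamini-Hochberg adjustment over 15591 genes, with a threshold of 0.05. Residual degrees of freedom were 2 and prior ones 2.41, at a common coefficient of biological variation of 0.320. Standard errors come from the test statistic. Fits were tested on simulated data. DESeq2 1.42.0 and limma-voom (limma 3.58.1), other scaling and filters, a replicate block and leaving out each library were the alternatives. Log2 CPM used a prior count of 2.

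The members and the gene lists were chosen with earlier results of these data known. Named genes were the 7 members and 2 genes with the smallest p in each related list. Also named were the nearest coding genes on either side of each member and the 5 nearest profiles. The gate and marker genes, Gm11505, Fstl3, Plppr3, Misp, Epx, Ctsc, Srgn, Cebpa, Gfi1 and Spi1 were added for their position, family or role. Values of Bpi, S100a8 and S100a9 are given outside these rules, and Bpi was named after its values were seen. The files show no molecular identifiers, so intervals of shares cover counting error only.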

Additional observations from a re-analysis of the deposited data

How the results depend on the processing

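With 2 libraries a group, the calls depended on the test and on Scr 1. The direction was the same under all 11 alternatives for 6 of the 7 genes, all but Ctsg. For these 6, both miR-99 KD libraries were above both Scr libraries with TMM scaling. Leaving out a library could not turn the sign at that scaling, and the other alternatives used the same libraries. The same direction is therefore no separate evidence. Genes past the threshold numbered 0 in the edgeR fit, 23 with upper-quartile factors, 9 with no filter on low counts, 261 with DESeq2, and 0 to 294 when each library was left out in turn, with 294 without Scr 1. Replicate numbers do not mark pairs in the labels, and same-numbered libraries deviated in opposite directions (r = −0.428 across genes). The replicate block called 0 genes and gave Mpo 2.52 (adjusted p 0.962). The crossed pairing as a block, chosen after seeing the data, called 28 genes.

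When each library was left out in turn, log2 fold changes ran from 2.04 to 3.06 for Mpo, 0.83 to 1.67 for Elane, 0.63 to 1.20 for Prtn3, −0.35 to 0.20 for Ctsg, 0.33 to 1.21 for Ms4a3, 1.85 to 3.89 for Fcnb and 0.55 to 1.10 for Prss57. Ctsg was positive without Scr 2 (0.18) and without miR-99 KD 1 (0.20). Mpo (2.63) and Fcnb (2.53) passed in DESeq2, and Mpo, Elane and Fcnb passed in edgeR without Scr 1; the cause was not tested. The median of the 7 genes ran from 0.63 to 1.21. Medians of related lists ran from 0.07 to 0.43 (other primary granule genes), 0.22 to 0.66 (promyelocyte stage), 0.01 to 1.34 (regulators), 1.10 to 2.56 (later granules) and −0.10 to 0.46 (paralogs).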
